A study of Bos taurus with 8 samples.

Results

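Desmosomes and adherens junctions are the contacts that hold the keratinocytes of a stratified squamous epithelium together. In a desmosome the transmembrane cadherins, the desmogleins and desmocollins, are joined through plakoglobin and plakophilins to desmoplakin, which anchors the keratin filaments. In an adherens junction E-cadherin is joined through beta-catenin and alpha-catenin to actin. The papillae of the rumen carry such an epithelium, which separates the fermenting rumen content from the blood.

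The genes described here are 10 genes of these contacts, taken as a list: the desmosomal cadherins DSG1, DSG3, DSC1, DSC2 and DSC3, the plaque proteins DSP, JUP and PKP1, and CDH1 and CTNNB1 of the adherens junction. A gene counted as measured where the RefSeq accession of a probe maps to its symbol in the bovine reference. This held for 7 of the 10 genes, out of 7788 genes that could be named on the array. DSC2, JUP and CDH1, which encode desmocollin 2, plakoglobin and E-cadherin, had no probe that could be named in this way and are absent from what follows. Each of the 7 genes had 1 probe, printed as 2 spots. The accessions were NM_174045 for DSG1, NM_001192685 for DSG3, NM_174044 for DSC1, NM_001178103 for DSC3, NM_001192368 for DSP, NM_174145 for PKP1 and NM_001076141 for CTNNB1. Since different probes bind with different strength, the signal of one gene says nothing about its level relative to another gene, and each gene is compared only with itself.

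The study asked what a diet rich in concentrate does to gene expression in the rumen wall. Papillae were taken from the ventral sac of the rumen of 4 lactating, ruminally cannulated Holstein cows, each of which was sampled on a low-concentrate diet (LC, 40% concentrate) and on a high-concentrate diet (HC, 70% concentrate, reached in steps), on day 21 of a period and 4 h after the morning feeding. Cows 1 and 2 received LC in period 1 and HC in period 2, and cows 3 and 4 the reverse, so that each diet has 4 arrays from the same 4 animals. The cows' age is not given in the sources used here, no gene was altered in any animal, and whole papillae, not isolated epithelium, were used.

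The arrays were alike in quality: 76.9 to 81.2% of the probes of an array were well above background by the scanner software's own test, and no spot was saturated. The 4 arrays of period 1 were on 1 slide and the 4 arrays of period 2 on another, so period and slide cannot be told apart. The tissue label was checked with markers of squamous epithelium. KRT14 and KRT15, keratins of the basal layer, and IVL and SFN, which belong to differentiating keratinocytes, reached a signal well above background on each array, whereas the probe for TP63 did so on none. The summed signal of the epithelial markers ran from 484436 to 583134 on LC and from 508555 to 572124 on HC. All 7 fibroblast markers and all 5 smooth muscle markers were detected on each array too, so the RNA comes from epithelium together with the tissue under it. In such a sample, fewer cells of a type and less RNA per cell cannot be told apart.

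Of the 7 genes with a probe, 6 gave a signal well above background on each of the 8 arrays: DSG1, DSG3, DSC3, DSP, PKP1 and CTNNB1. The seventh, DSC1, was well above background on 0 of 8 arrays. Desmocollin 1 is the desmocollin of the uppermost layers of cornified epithelia. Its normalized log2 signal was 0.33 to 1.98, under the lowest signal that the software called well above background on any array, 2.02 to 2.77. No fold change is given for DSC1. In the bovine reference the genes of the desmosomal cadherins lie next to each other, in the order DSG2, DSG3, DSG4, DSG1, DSC1, DSC2 and DSC3 with only a tRNA gene and a long noncoding RNA gene between them. So DSG1, which gave the most variable signal of all members, and DSC1, which gave none that could be measured, are neighbours in this cluster, separated only by the noncoding gene.

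No member gene met the study's rule for a diet effect, a fold change of at least 1.5 with an unadjusted p under 0.05. The count was 0 of 6 genes, against 0.274% of the 16030 features with a signal well above background on each array (the measured features) and 0.922% of all 21475 features, so that a count of 0 is what the background gives for a list of this size. None of the 6 had an unadjusted limma p under 0.05 either: the lowest was 0.226, for CTNNB1. After Benjamini-Hochberg adjustment over all features the lowest adjusted p among the members was 0.9995, and 0% of all features passed that adjustment. Of the 16030 measured features, 418 had an unadjusted limma p under 0.05, fewer than that threshold gives on average where nothing differs. The log2 fold changes of the 6 genes, HC minus LC, ran from -0.64 to 0.17 with a median of -0.07, beside a median of -0.0002 over all measured features. The LC and HC arrays overlapped in 6 of 6 genes. They did not overlap in 1.63% of the measured features.

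**Figure D1:**
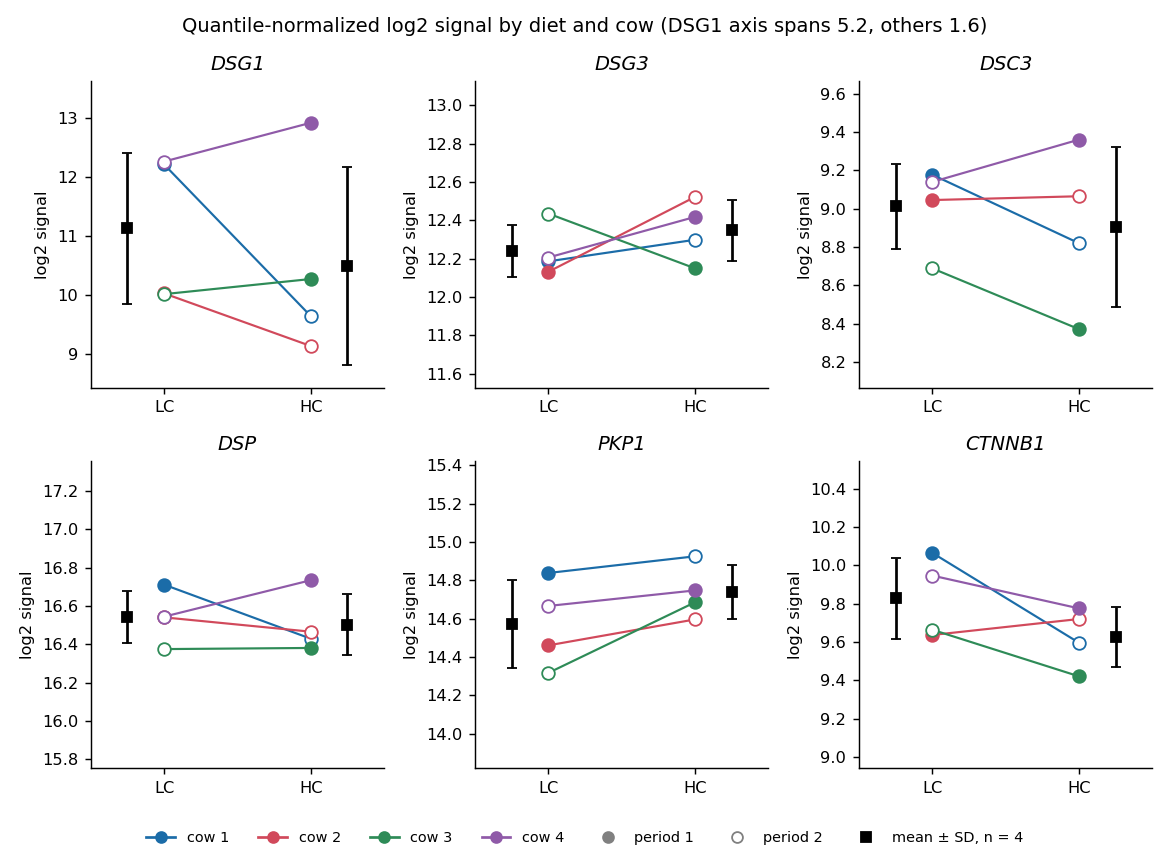
Quantile-normalized log2 signal of the 6 member genes above background on all 8 arrays, by diet (x axis). Each line joins the LC and HC arrays of 1 cow, filled points are period 1 and open points period 2, and black squares with bars are the mean ± SD over 4 arrays. The axis of DSG1 is longer than those of the other genes: its arrays run from 9.13 to 12.92, while DSG3 stays between 12.13 and 12.52. PKP1 is the gene whose HC point lies above the LC point in all 4 cows.

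DSG1 encodes desmoglein 1, the desmoglein of differentiating keratinocytes and the target of autoantibodies in pemphigus foliaceus. On the LC diet its log2 signal was 12.21 in cow 1, 10.03 in cow 2, 10.01 in cow 3 and 12.26 in cow 4. On the HC diet it was 9.64 in cow 1, 9.13 in cow 2, 10.27 in cow 3 and 12.92 in cow 4. The highest signals were on 3 arrays, those of cow 4 on either diet and that of cow 1 on LC, and the other 5 were low. The mean was 11.13 ± 1.28 (SD, n = 4) on LC and 10.49 ± 1.68 on HC. The log2 fold change for diet was -0.64 (SE 0.83, 95% interval -2.65 to 1.37), with a limma p of 0.471 and an exact two-sided permutation p of 0.629. The fit behind this interval does not pair the 2 arrays of a cow. There the interval is so wide that neither a large fall nor a large rise of DSG1 could be told from no change. With the cow as a replicate block and period in the model, the diet difference had an SE of 0.30, a limma p of 0.0972 and an adjusted p of 0.846. The diet difference also depended on single arrays: leaving out cow 3 on HC gave 0.0247, and leaving out each other array in turn gave -1.30 to -0.0755.

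The spread of DSG1 over the arrays was among the largest on the array. Its SD over the 8 arrays was 1.43, the 99.9th percentile among the 16030 measured features, and its highest and lowest arrays differed 13.8-fold. The 2 spots of its probe differed by a median of only 0.04 on the log2 scale and by 0.20 at most, so the spread lies between arrays and not between spots. The other 5 genes had SDs from 0.14, for DSP, to 0.32, for DSC3, or the 22.9th to the 79.2nd percentile. The unnormalized intensity of DSG1 was spread widely as well, from 634 in cow 2 on HC to 6818 in cow 4 on HC.

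DSG1 was lower in period 2 than in period 1 in 4 of 4 cows. The differences, period 2 minus period 1, were -2.57 in cow 1, -0.89 in cow 2, -0.26 in cow 3 and -0.66 in cow 4, and 25.7% of the measured features moved the same way in all 4 cows between the periods. Since the diets were crossed with the periods, the same 4 values appear as lower values on HC in cows 1 and 2 and higher values on HC in cows 3 and 4. Within period 1 the HC arrays were higher by 0.48 on average, and within period 2 they were lower by 1.75, 2 arrays against 2. The period difference was -1.09 (SE 0.83), with a limma p of 0.234 and an exact permutation p of 0.229, and the arrays of the periods overlapped. Leaving out 1 array at a time moved it from -1.76, without the HC array of cow 3, to -0.43, without that of cow 4. With the cow as a replicate block, the same difference had an SE of 0.30 and a limma p of 0.0193 and thus met the rule, as did 2.14% of the measured features in that fit, while its adjusted p was 0.234. Without moderation of the variance, the blocked fit gave a p of 0.127. With both arrays of a cow left out of the blocked fit, the p was 0.0149 without cow 1, 0.00091 without cow 2, 0.0597 without cow 3 and 0.092 without cow 4. In the blocked fit without cow 2 the diet difference of DSG1 met the rule as well, at -1.06 with a limma p of 0.00327. In each of those 4 fits 1 residual degree of freedom remained.

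Some markers of other cell types differed between the periods before adjustment. Their adjusted p was 0.162 for DCT, 0.144 for PLIN1 and 0.247 for CD3E. DCT, a pigment enzyme of melanocytes, fell by 1.56 on the log2 scale from period 1 to period 2 (limma p = 0.00321, exact permutation p = 0.0286, the smallest that 4 arrays against 4 can give). Such a permutation p means that the arrays of the periods do not overlap, as in 7.31% of the measured features. TYR and MLANA, which define melanocytes, were well above background on 0 of 8 arrays, so the summed signal of the melanocyte markers, 309 to 567 in period 1 and 102 to 267 in period 2, is almost wholly that of DCT. The 2 spots of the DCT probe differed by a median of 1.04 and by 3.32 at most on the log2 scale, far more than those of DSG1. PLIN1, which coats the lipid droplets of adipocytes, was higher in period 2 by 0.74 (limma p = 0.00244, exact permutation p = 0.0286). The spots of its probe differed by a median of 0.38, and with the normexp background correction its period difference was 0.0824 and did not meet the rule. CD3E of T cells, 1 of 5 leukocyte markers with a probe, was higher by 0.50 (limma p = 0.0112, exact permutation p = 0.0571), beside an overlap of the leukocyte sums, 7960 to 10344 in period 1 and 8082 to 9718 in period 2. The epithelial sums overlapped as well, 508555 to 583134 against 484436 to 568793. The part of these cell types in the period difference of DSG1 was not tested.

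DSG3 encodes desmoglein 3, the desmoglein of basal keratinocytes and of mucosal epithelia and the target in pemphigus vulgaris. Its log2 signal on LC was 12.19 in cow 1, 12.13 in cow 2, 12.44 in cow 3 and 12.21 in cow 4. On HC it was 12.30, 12.52, 12.15 and 12.42 in the same order of cows. It was higher on HC in 3 cows and lower in cow 3, and the diets overlapped. The difference was 0.11 (SE 0.11, 95% interval -0.17 to 0.39, limma p = 0.383, exact permutation p = 0.314), so a diet effect of 1.5-fold in either direction lay outside the interval.

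DSC3, desmocollin 3, is the desmocollin of the basal layers. On LC its log2 signal was 9.18 in cow 1, 9.05 in cow 2, 8.69 in cow 3 and 9.14 in cow 4. On HC it was 8.82, 9.07, 8.37 and 9.36. The arrays of cow 3 were the lowest on either diet and the HC array of cow 4 the highest. DSC3 was higher on HC in 2 cows and lower in the other 2, with a difference of -0.11 (SE 0.24, 95% interval -0.68 to 0.47, limma p = 0.663, exact permutation p = 0.657).

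Of the plaque proteins, DSP encodes desmoplakin, the link from the plaque to keratin. Its log2 signal was 16.71, 16.54, 16.38 and 16.54 in cows 1 to 4 on LC, and 16.43, 16.47, 16.38 and 16.73 on HC. The diets overlapped, with the HC array of cow 4 the highest and the LC array of cow 3 the lowest, and the difference was -0.04 (SE 0.12, 95% interval -0.32 to 0.24, limma p = 0.739, exact permutation p = 0.686). Like DSG1, DSP was lower in period 2 in 4 of 4 cows, but by 0.006 to 0.28 only, with a period difference of -0.14 (SE 0.12, limma p = 0.275, exact permutation p = 0.2).

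PKP1 encodes plakophilin 1, which gathers desmosomal cadherins and desmoplakin in the upper layers. On LC its log2 signal was 14.84 in cow 1, 14.46 in cow 2, 14.32 in cow 3 and 14.67 in cow 4. On HC it was 14.93, 14.60, 14.69 and 14.75. The HC array exceeded the LC array in 4 of 4 cows, by 0.09, 0.14, 0.37 and 0.08, and PKP1 was the only one of the 6 genes that moved the same way in every cow, as 11.3% of the measured features did. The diets nevertheless overlapped, because cow 1 was higher on LC than cows 2, 3 and 4 were on HC. The mean difference of 0.17 (SE 0.15, 95% interval -0.18 to 0.52) did not pass the test, with a limma p of 0.289 and an exact permutation p of 0.257, and it ran from 0.0736 to 0.26 with 1 array left out. These tests do not pair the arrays of a cow. With the cow as a replicate block and period in the model, the SE was 0.095 and the limma p 0.144.

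CTNNB1 encodes beta-catenin, which binds the tail of classical cadherins at the adherens junction and is also the transcriptional coactivator of the Wnt pathway. On LC its log2 signal was 10.07 in cow 1, 9.64 in cow 2, 9.66 in cow 3 and 9.95 in cow 4. On HC it was 9.60, 9.72, 9.42 and 9.78. It was lower on HC in 3 of 4 cows, with a difference of -0.20 (SE 0.15, 95% interval -0.56 to 0.16, limma p = 0.226, exact permutation p = 0.229). With 1 array left out the difference ran from -0.31 to -0.093. The diets overlapped, since the LC arrays of cows 2 and 3 lay below the HC arrays of cows 2 and 4.

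**Figure D2:**
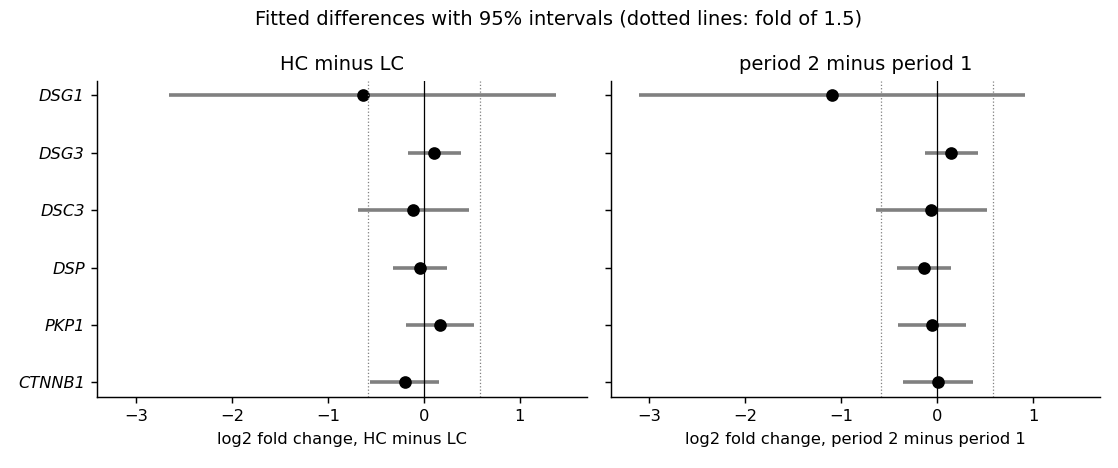
Fitted log2 fold change (points) with its 95% interval (bars) for the 6 member genes, HC minus LC on the left and period 2 minus period 1 on the right. Dotted lines mark a fold of 1.5 in either direction. All intervals include 0, and those of DSG3, DSP, PKP1 and CTNNB1 stay inside the dotted lines in each panel, whereas those of DSG1 and DSC3 do not.

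For 4 of the 6 genes, DSG3, DSP, PKP1 and CTNNB1, the interval of the diet difference lay within a fold of 1.5 on either side, and for DSG1 and DSC3 it did not. That held for 79.0% of the measured features for diet and 70.9% for period, where the same 4 genes had such an interval, so the members' share, 66.7%, was not above the background. For period, 0 of 6 genes met the rule, against 1.95% of the measured features and 3.86% of all features. The arrays of the periods overlapped in 6 of 6 genes and did not overlap in 7.31% of the measured features. The difference between the diet differences of the periods met the rule in 0 of 6 genes, against 8.2% of the measured features and 8.58% of all features. It was largest in DSG1, at -2.23 (SE 1.66, 95% interval -6.25 to 1.80), and ran from -3.55 to -0.90 with 1 array left out. As cows 1 and 2 had HC in period 2 and cows 3 and 4 in period 1, it cannot be told apart from a difference between these pairs of cows. The SE, the interval and the counts for it treat the 2 arrays of a cow as independent, although cows are what it compares. An unadjusted limma p under 0.05 was found in 0 of 6 members for diet, period and that difference, and in 418, 1764 and 1641 of the 16030 measured features.

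The 6 genes differed more between arrays than between the diets, and part of that variation was shared. On the HC array of cow 4, 6 of 6 genes were above their own mean over the 8 arrays, and on the LC arrays of cows 1 and 4, 5 of 6 were. On either array of cow 3, only 1 of 6 was. The summed signal of the epithelial markers was highest on the same arrays of cows 1 and 4. It was 583134 in cow 1 on LC, 568793 in cow 4 on LC and 572124 in cow 4 on HC. The lowest sums were those of cow 3, 484436 on LC and 508555 on HC. The part of the epithelial share of the tissue in the shared variation was not tested. The median deviation of the 6 genes ran from -0.23 on the HC array of cow 3 to 0.20 on the LC array of cow 1, while the median over all measured features stayed between -0.01 and 0.01. By cow, the median difference of the 6 genes between HC and LC was -0.32 in cow 1, 0.05 in cow 2, -0.12 in cow 3 and 0.20 in cow 4, so that the cows did not share a direction.

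Across the 8 arrays, which come from only 4 animals, 11 of the 15 pairs of genes had a positive Pearson r, with a median of 0.33. The highest was that of DSC3 with DSP, 0.85. DSG1 followed DSP with an r of 0.81, and CTNNB1 followed DSC3 with 0.76 and DSP with 0.72. DSG3 stood apart, with r between -0.21 and 0.20 to the other 5 genes. These values are descriptions, since the arrays of a cow and the arrays of a slide are not independent.

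The genes whose pattern over the 8 arrays was most like the mean of the 6 centred members were, among 6437 genes compared, KRT75 (r = 0.976), ZC4H2 (0.966), PRR14 (0.951), PALMD (0.933) and C1H3orf70 (0.927). That mean follows DSG1 more than any other member, as DSG1 varied most. KRT75 is a type II keratin known from the hair follicle, ZC4H2 a zinc finger protein, PRR14 a protein of the nuclear lamina and PALMD a relative of paralemmin. The log2 signal of KRT75 was 9.02 in cow 1 on LC, 8.81 in cow 4 on LC and 9.53 in cow 4 on HC, and 7.67 to 8.16 on the other 5 arrays. KRT75 was high on the same 3 arrays as DSG1, with an r of 0.918 between these genes. As KRT75 and ZC4H2 were picked for following the members' mean, their likeness to DSG1 adds no further evidence. The same 3 arrays were the highest for ZC4H2, with 10.02, 9.70 and 10.02, against 8.97 to 9.38 on the others, although the 2 spots of its probe differed by a median of 0.56, more than its SD over the arrays, 0.43. The spots also differed by more than the SD in PRR14, 0.081 against 0.070, and in C1H3orf70, 0.56 against 0.40. KRT75 did not differ by diet beyond its spread, at -0.13 (SE 0.47, limma p = 0.785, exact permutation p = 0.857).

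**Figure D3:**
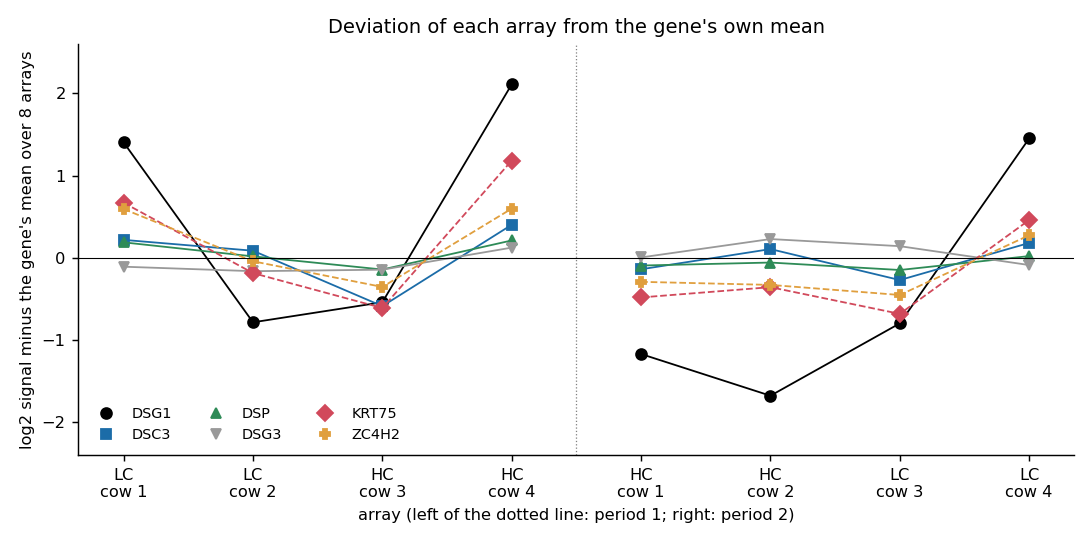
Log2 signal minus the gene's own mean over 8 arrays (y axis) on each array (x axis), for the member genes DSG1, DSC3, DSP and DSG3 (solid lines) and for KRT75 and ZC4H2 (dashed lines), with period 1 left of the dotted line and period 2 right of it. The LC array of cow 1 and the arrays of cow 4 are above 0 for all genes shown except DSG3, which is below 0 on the LC arrays of cows 1 and 4, and DSG1 deviates from 2.11 on the HC array of cow 4 to -1.68 on that of cow 2.

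Other genes of the same structures were taken from 6 lists, of which 26 genes were above background on all 8 arrays. None of the 26 met the rule for diet or for period. For the difference between the diet differences of the periods, 5 met it: CDSN, PKP4, COL17A1, CD151 and SNAI2. This was 19.2%, against the 8.2% of all measured features given above. Both shares and the SEs of this difference treat the 2 arrays of a cow as independent, although it compares pairs of cows. On the means of the 4 cows, only CDSN and COL17A1 among these 5 genes met the rule. Of the 8 other desmosome genes, 3 had a named probe and 2, PKP3 and CDSN, were above background on all 8 arrays, while DSG2 was so on 1 array. The difference between diets was 0.03 (SE 0.11) for PKP3, plakophilin 3, and 0.01 (SE 0.27) for CDSN, corneodesmosin, a glycoprotein that strengthens the desmosomes of cornifying cells. CDSN was the more variable, with an SD over the arrays of 0.79, at the 98.9th percentile, but its arrays did not follow those of DSG1 (r = -0.40): it was 9.87 in cow 1 and 9.72 in cow 2 on LC and 7.83 in cow 4 on LC. It was lower in period 2 in 4 of 4 cows, with a period difference of -0.61 (SE 0.27, limma p = 0.0633, exact permutation p = 0.257) that did not meet the rule. Its diet difference was -1.17 within period 1 and 1.19 within period 2, which cancel in the mean, and the difference between them, 2.37 (SE 0.55, adjusted p = 0.35), met the rule. Its mean was 9.49 in cows 1 and 2 and 8.31 in cows 3 and 4, whose arrays overlapped.

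Of the 20 other adherens junction genes, 10 had a named probe and 9 were above background on all 8 arrays. None met the rule for diet or period, and the median diet difference was -0.13, with 2 of 9 genes higher on HC. The lowest value was that of ARVCF, a catenin of the p120 family, at -0.44 (SE 0.31, limma p = 0.197, exact permutation p = 0.257). Leaving out cow 3 on HC gave ARVCF a difference of -0.78 that met the rule, whereas leaving out cow 4 on HC gave -0.10, and with the normexp background correction it was -0.18. The highest was NECTIN4, a nectin of epithelia, at 0.06 (SE 0.14). PKP4, another catenin of the p120 family, chosen here after its values were seen, was lower on HC in 4 of 4 cows. Its log2 signal was 11.39, 11.64, 12.10 and 12.11 in cows 1 to 4 on LC and 11.27, 11.63, 11.59 and 11.54 on HC. The difference of -0.30 (SE 0.12, limma p = 0.0397, exact permutation p = 0.2, adjusted p = 0.9995) fell short of the fold of 1.5. It was 0.0486 within period 1 and -0.66 within period 2, and the difference between these, -0.70 (SE 0.23, adjusted p = 0.435), met the rule.

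Hemidesmosomes attach the basal cells to the basement membrane. Of 9 listed genes, 5 reached such a signal on each array and 0 met the rule for diet or period, with a median diet difference of -0.14. ITGB4, the beta chain of the hemidesmosomal integrin, was above its LC value on HC in 4 of 4 cows, with a difference of 0.28 (SE 0.21, limma p = 0.217, exact permutation p = 0.429). Both tests leave the arrays of a cow unpaired. With the cow as a replicate block and period in the model, its limma p was 0.023, and the fold of 1.22 did not meet the rule. Of the measured features, 11.3% moved the same way in every cow. LAMB3, a laminin chain of that membrane, was lower on HC in 3 of 4 cows with a difference of -0.35 (SE 0.20, limma p = 0.127, exact permutation p = 0.229), which was -0.16 without the HC array of cow 1 and -0.55 without that of cow 2. COL17A1, a collagen that spans the membrane of basal cells, and CD151, a tetraspanin bound to the integrin, met the rule for the difference between the periods. Both are named for that reason, after their values were seen. The diet difference of COL17A1 was 0.18 within period 1 and -0.54 within period 2, and that of CD151 was -0.29 and 0.39. The means of cows 1 and 2 and of cows 3 and 4 were 11.92 and 12.28 for COL17A1 and 15.22 and 14.88 for CD151. This is the same contrast as the difference between the periods and adds no further evidence. Of the 9 proteases that cut cadherins and their inhibitor, 4 were measured and 0 met the rule for diet or period. KLK8, a kallikrein of shedding epithelia, had the highest value, 0.22 (SE 0.54), and SPINK5, which inhibits kallikreins, the lowest, -0.01 (SE 0.15).

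Of the 8 transcription factors that repress cadherin genes or act on desmosome genes, only SNAI2 and GRHL1 were measured. SNAI2, a repressor of E-cadherin, differed by -0.02 (SE 0.11) over the periods, by 0.30 within period 1 and by -0.33 within period 2, and the difference between these, -0.62 (SE 0.23, adjusted p = 0.465), met the rule. GRHL1, a factor that binds the promoter of DSG1, was above its LC value on HC in 3 of 4 cows, with a mean difference of 0.25 (SE 0.11, limma p = 0.0651, exact permutation p = 0.114), without meeting the rule, and its r with DSG1 was -0.26. Of the 10 genes of beta-catenin turnover and its partners, 4 were above background on all 8 arrays and 4 of 4 had a diet difference below 0. AXIN1, of the complex that degrades beta-catenin, was at -0.01 (SE 0.09). TCF7, a factor that binds beta-catenin, was lower on HC in 4 of 4 cows. Its log2 signal was 9.49, 9.16, 8.93 and 9.11 on LC and 8.78, 8.82, 8.83 and 8.99 on HC in cows 1 to 4, so that the diets overlapped only through cows 3 and 4. The difference of -0.32 (SE 0.11, limma p = 0.0297, exact permutation p = 0.0571, adjusted p = 0.9995) was below the fold of 1.5.

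**Figure D4:**
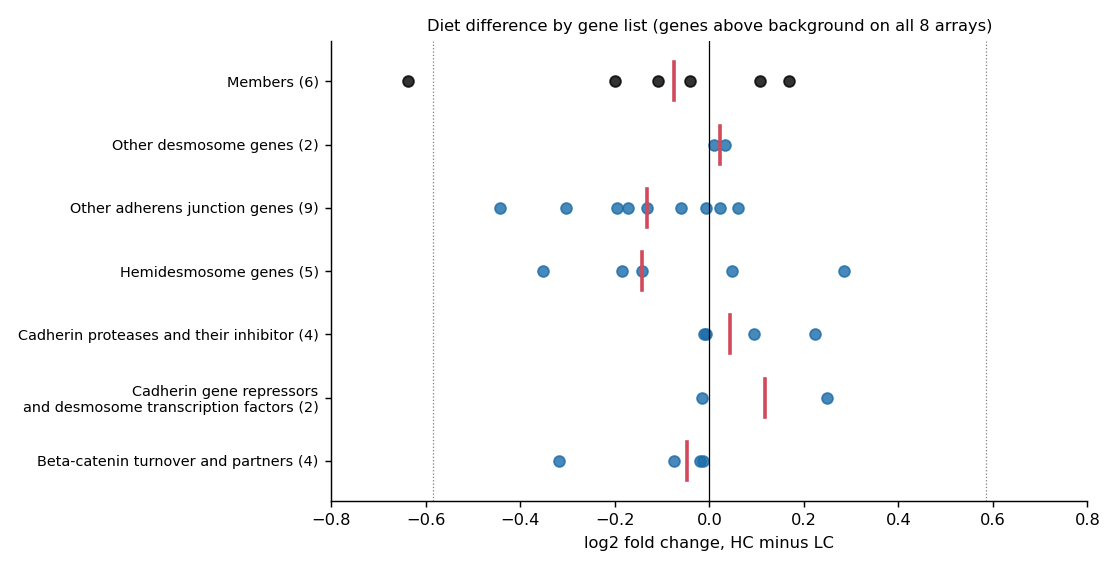
Log2 fold change between diets, HC minus LC (x axis), for the member genes and the genes of 6 related lists that were above background on all 8 arrays. Each point is 1 gene, red bars are medians, the number of genes is in brackets, and dotted lines mark a fold of 1.5. DSG1, at -0.64, is the point outside the dotted lines, and it did not pass the test.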

How the data were processed

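RNA of 8 rumen papilla samples was measured on single-colour bovine arrays, 4 per diet, assigned to diet, cow and period from the labels. For each array the authors deposited the background-subtracted spot intensity given by Feature Extraction 10.7.3.1, not normalized between arrays, and for all arrays a table of quantile-normalized log2 values that the authors deposited and that served as an alternative.

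Control and outlier spots were left out. Log2 intensities were quantile-normalized with limma 3.58.1 in R 4.3.3 without a dim filter, with the mean taken over the spots of each probe. Of 10176 features with a RefSeq accession, 8297 were named through the reference table (ARS-UCD2.0). No coordinates are given, because the array design names another build (Btau_3.1), and probe sequences were not analysed here, so binding to related genes was not tested.

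A limma model with diet, period and their interaction was fitted to all 21475 features, with 4 residual and 2.26 prior degrees of freedom. A call needed a fold of 1.5 and an unadjusted p under 0.05, the study's rule, and adjusted p values are Benjamini-Hochberg values over all features. Intervals are at 95% and come from this fit, which does not pair the arrays of a cow. Exact permutation tests of 4 arrays against 4 (scipy 1.17.1) cannot give a p under 0.0286. The fit was tested on simulated data. The number of arrays limits the precision. Arrays of a cow come from 1 animal: the deviations of its LC and HC arrays from the diet means correlated with r of 0.113 to 0.467 in the 4 cows, against -0.237 to 0.185 between different cows.

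The members and the lists were chosen with earlier results of these data known. All members are described. From each list, the genes called for diet or period and those with the highest and lowest diet difference among genes above background on all 8 arrays are named, with the 5 genes whose pattern was most like the members' mean. PKP4, COL17A1 and CD151 were named in addition after their values were seen. The alternatives were other scalings and background corrections, the deposited table, models with fewer terms, the cow as a block, other variance moderation, a dim filter and leaving out arrays. The background correction by normexp (offset 50) was applied to median spot signals, since the files used hold no mean signal. Leaving out whole cows and the blocked fit without moderation were added after seeing the data.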

Additional observations from a re-analysis of the deposited data

Results flagged for a closer look

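The difference between the diet differences of the periods is HC minus LC in period 2 minus that in period 1. It met the rule in 5 of the 26 list genes above background on all 8 arrays, or 19.2%, against 8.2% of the measured features. The 5 genes were CDSN (2.37), SNAI2 (-0.62), PKP4 (-0.70), COL17A1 (-0.72) and CD151 (0.68). After adjustment over all features the lowest adjusted p among them was 0.35. This difference cannot be told apart from one between cows 1 and 2 and cows 3 and 4.

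In 46 groups of 4 arrays (23 genes on 2 diets), 5 held an array far from the other 3. A chance rate of about 1 in 20 would apply to independent groups only, and these groups share the same 8 arrays. KRT75 and ZC4H2 were also picked for following the members' mean, which was highest on the HC array of cow 4. No excess over chance can be read from this count. On HC, CDSN was 7.996 in cow 4 against 9.17 on the next array, NECTIN4 was 9.39 in cow 1 against 9.83, KRT75 was 9.53 in cow 4 against 7.99, and ZC4H2 was 10.02 in cow 4 against 9.13. On LC, ARVCF was 6.45 in cow 3 against 5.89. No such array was found in the 6 member genes.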

How the results depend on the processing

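With the cow as a replicate block and period in the model, 1 of the 6 genes, DSG1, met the rule for period, and this number was 1 as well with both arrays of cow 1 or of cow 2 left out of that fit, and 0 with cow 3 or cow 4 left out or without moderation. The count for diet was 1 in the blocked fit without cow 2, again DSG1, and 0 under every other alternative run, and that for the interaction stayed at 0. The replicate block changed no other call among the members. The median over the 6 genes moved by less than its SD over the cows under every alternative.

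Leaving out single arrays turned the sign of differences near 0. For diet the range was -1.30 to 0.0247 in DSG1, -0.36 to 0.14 in DSC3, -0.13 to 0.0482 in DSP, -0.042 to 0.11 in PKP3, -0.30 to 0.32 in CDSN, -0.0532 to 0.18 in NECTIN4, -0.18 to 0.63 in KLK8, -0.12 to 0.0942 in SPINK5, -0.0913 to 0.0613 in SNAI2 and -0.059 to 0.0337 in AXIN1. For period it was -0.31 to 0.19 in DSC3, -0.15 to 0.0376 in PKP1 and -0.10 to 0.11 in CTNNB1. With normexp the diet difference was -0.0134 in CDSN and 0.026 in SPINK5, and SPINK5 was at 0.0265 in the deposited table. None of these met the rule. Of the diet-by-period differences that met it, those of PKP4, COL17A1, CD151 and SNAI2 did not under some alternatives that left out 1 array, with ranges of -0.89 to -0.52, -0.90 to -0.54, 0.59 to 0.77 and -0.77 to -0.47, and those of PKP4, CD151 and SNAI2 did not on the means of the cows. That of CDSN met it throughout. The mean over several probes could not be run, since each member has 1. The intervals come from the fit without a cow block. There, with 4 cows, only DSG3, DSP, PKP1 and CTNNB1 among the 6 members had intervals that left out a diet effect of 1.5-fold. With the cow as a block, the SE of the diet difference of DSC3 was 0.14, against 0.24 without it, and intervals were not compared there. Sensitivity to signal is limited by background: DSC1 has no measured level.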
